A study of Mus musculus with 12 samples.

Results

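The HoxD cluster is 1 of the 4 runs of homeobox genes in the mouse genome and holds 9 genes, Hoxd1, Hoxd3, Hoxd4, Hoxd8, Hoxd9, Hoxd10, Hoxd11, Hoxd12 and Hoxd13. Its members were taken as the probe sets whose annotation gives exactly 1 of these symbols, and 8 of the 9 genes had such a probe set, out of 18193 genes measured in the same way. Hoxd4 is represented by 2 probe sets that are annotated to Hoxd3 as well, so no value was assigned to it. Hoxd8 and Hoxd13 have 2 probe sets each, which were averaged, and the other 6 have 1 each.

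Hox proteins are transcription factors that bind DNA through a homeodomain and give cells a memory of their position along the body. Within a cluster, the genes lie in the order in which they are used from head to tail, so that Hoxd1 and Hoxd3 belong to the anterior end and Hoxd9 to Hoxd13 to the posterior end. Posterior HoxD genes are also used in limbs and in the genital bud, and fibroblasts of adult skin are known to keep a site-specific set of Hox transcripts. In mouse embryos, posterior Hox genes are active at the level of the tail.

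Expression was profiled in dermis of neonatal C57Bl6/CBA F1 mice on 12 Affymetrix MG430.2A arrays of 1 colour, with 3 arrays in each of 4 groups, labelled P5 Tail, P5 Back, P1 Tail and P1 Back after the postnatal day and the site. The study's methods describe RNA of triplicate mice for day 1 and do not describe the day 5 arrays, so each array was taken as 1 mouse. All groups share the strain, and no treatment or mutation is named for any of them. For day 1 the methods give EDTA for loosening tail skin and dispase with trypsin for back skin, so site and solution cannot be told apart.

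The deposited values are log2 expression values in which every probe set has been centred on its median over the 12 arrays, so they give differences between arrays but no level. A value of 1 means 2-fold above that gene's median array. The median of all probe sets lay between -0.02 and 0.01 on each array, and on principal component 1 P5 Tail 2 had the highest value, 89.7, followed by P5 Tail 3 at 33.7 and P5 Tail 4 at 17.2, with the other 9 arrays between -31.1 and -2.1. For day 1 the methods describe digesting the separated dermis to single cells before lysis. In such a mixture of dermal cells, fewer cells of a type and less RNA per cell cannot be told apart.

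The labels of the sites were checked against marker genes. Adipocyte genes were higher in arrays labelled tail at P1, where their list mean lay between 1.10 and 1.60 in P1 Tail and between -1.21 and -1.14 in P1 Back, and 7 of the 8 measured passed the test. At P5 the mean lay between -0.15 and 0.38 in P5 Tail and between -0.43 and 0.03 in P5 Back, and 1 of 8 passed, as higher. The study's text places fat-related expression in the back, so the direction given by the labels opposes that of the study. Hoxb13, a posterior gene of another cluster, was lower in tail, at -0.97 to -0.73 in P5 Tail, 0.77 to 1.28 in P5 Back, -1.14 to -0.86 in P1 Tail and 0.73 to 1.64 in P1 Back. Every group below is named by its label, as P5 Tail or P1 Back, and no label was exchanged. Whether the sites were exchanged when the arrays were labelled was not tested. If they had been, each difference between sites would change its sign and keep its size.

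At P5, Hoxd9, Hoxd10 and Hoxd11 were lower in the arrays labelled tail than in those labelled back, Hoxd11 by 9.72-fold, Hoxd10 by 8.29-fold and Hoxd9 by 2.47-fold. At P1 the same 3 genes were lower in tail, by 10.01-fold for Hoxd10, 8.49-fold for Hoxd11 and 2.36-fold for Hoxd9. None of the other 5 measured members passed the test at either age. Hoxd8, on the anterior side of these genes, and Hoxd12, on the posterior side, had site differences between -0.22 and 0.13 on the log2 scale.

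Differences were tested in limma over all 18193 genes, with p-values adjusted by the Benjamini-Hochberg method and a threshold of 0.05. At P5, 3 of 8 members passed as lower in tail, against 2.61% of all genes, and 0 as higher, against 4.3%, or 6.91% in either direction. At P1, the counts were again 3 of 8 lower, against 1.91% of all genes, and 0 higher, against 2.06%, or 3.97% in either direction. The 3 genes were lower at both ages, which 94 genes were in all, or 0.517%. The 2 ages share no array, although their spread was estimated together.

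**Figure D1:**
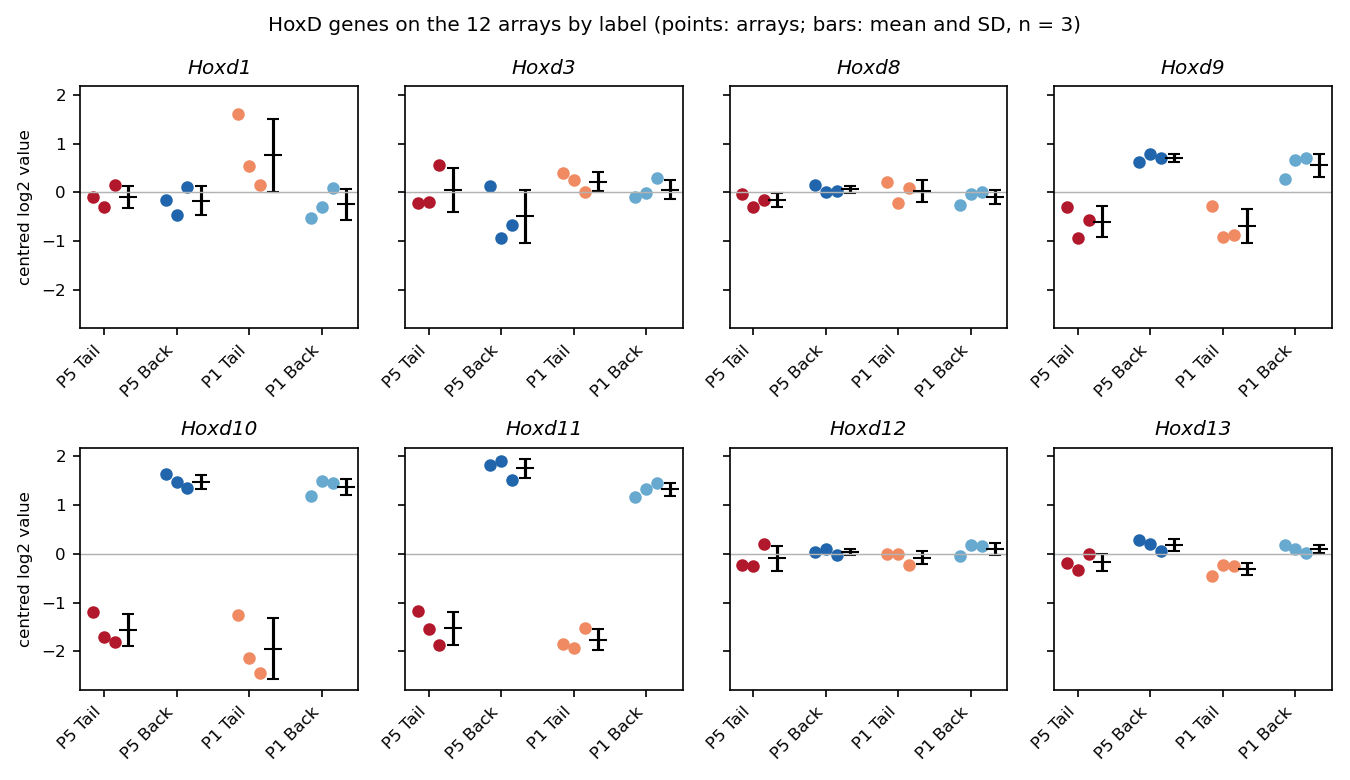
Centred log2 values of the 8 measured HoxD genes (vertical axis) on each array, in the groups P5 Tail, P5 Back, P1 Tail and P1 Back (horizontal axis), with points for arrays and bars for the mean and SD of 3 arrays. For Hoxd10 and Hoxd11 every tail array lies at or below -1.18 and every back array at or above 1.18, whereas the groups of Hoxd3 and Hoxd12 overlap at both ages.

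Hoxd11, a gene of the posterior end that is needed with Hoxa11 for the forearm and the kidney in mice, had the lowest site difference of the cluster at P5. It was -1.18, -1.54 and -1.87 in P5 Tail, against 1.83, 1.91 and 1.52 in P5 Back. At P1 it was -1.84, -1.93 and -1.52 in P1 Tail, against 1.18, 1.33 and 1.46 in P1 Back. The gap between tail and back was thus wider than the spread within any group, and no tail array came near a back array. The difference was -3.28 ± 0.17 at P5 (SE, n = 3 per group, limma adjusted p = 5.67e-07) and -3.09 ± 0.17 at P1 (adjusted p = 6.83e-07). Among 18193 genes ordered from the lowest difference, Hoxd11 took rank 3 at P5 and rank 12 at P1.

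Hoxd10, its neighbour in the cluster, is expressed in posterior trunk and limbs and takes part in patterning of the lumbar spinal cord and hindlimb. Its values were -1.19, -1.71 and -1.80 in P5 Tail, against 1.63, 1.47 and 1.35 in P5 Back. In the younger mice they were -1.25, -2.13 and -2.45 in P1 Tail, against 1.19, 1.505 and 1.44 in P1 Back. P1 Tail 4 was the highest of its group, and it still lay far below all back arrays. The difference was -3.05 ± 0.25 at P5 (adjusted p = 2.21e-05) and -3.32 ± 0.25 at P1 (adjusted p = 1.24e-05), at ranks 4 and 9 of all genes. Across the 12 arrays Hoxd10 and Hoxd11 differed from each other by 0.36 (root mean square of centred log2 values), compared with 0.99 to 1.97 between either of them and Hoxd1, Hoxd3, Hoxd8 or Hoxd9.

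Hoxd9, which begins the posterior part of the cluster and acts with its paralogues in forelimb and lumbosacral patterning, showed the same order of groups over a smaller range. It was -0.30, -0.94 and -0.56 in P5 Tail, against 0.62, 0.78 and 0.71 in P5 Back. It was -0.28, -0.91 and -0.88 in P1 Tail, against 0.28, 0.67 and 0.71 in P1 Back. Every tail array lay below every back array, with P1 Tail 4 and P1 Back 1 nearest to each other. The difference was -1.31 ± 0.19 at P5 (adjusted p = 0.00136) and -1.24 ± 0.19 at P1 (adjusted p = 0.00243). With 3 arrays in each group, an exact two-sided permutation test of a single gene cannot give a p below 0.1. By the methods' t-test, run gene by gene on the same values, none of the 3 genes passed after adjustment, with adjusted p between 0.0743 and 0.146 at P5 and between 0.059 and 0.133 at P1. That test passed 24 of all 18193 genes at P5 and 6 at P1, so a count of 0 in a small set says little.

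The region around the start of transcription is printed for these 3 genes because they moved together, while genes on both sides of them in the cluster did not pass the test. Each line holds 300 bases, 250 before the start and 50 after it, 5′ to 3′, from RefSeq on build GRCm38.p6. Hoxd11 has 2 annotated starts, 2765 bases apart. Capitals mark a match to TTTATG, a motif of the caudal-type factors that act upstream of posterior Hox genes, or to TGATNNAT, a motif bound by Hox proteins together with their cofactor Pbx. Both matches shown lie on the other strand and are therefore written as their reverse complement.
Hoxd11 upstream start, chr2:74679308-74679607, plus strand: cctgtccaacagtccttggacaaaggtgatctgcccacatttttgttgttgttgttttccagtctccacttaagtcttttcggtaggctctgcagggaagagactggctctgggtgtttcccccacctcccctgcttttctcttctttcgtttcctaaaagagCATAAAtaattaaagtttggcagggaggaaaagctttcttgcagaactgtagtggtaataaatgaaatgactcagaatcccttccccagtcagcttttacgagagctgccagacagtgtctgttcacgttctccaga
Hoxd11 downstream start, chr2:74682073-74682372, plus strand: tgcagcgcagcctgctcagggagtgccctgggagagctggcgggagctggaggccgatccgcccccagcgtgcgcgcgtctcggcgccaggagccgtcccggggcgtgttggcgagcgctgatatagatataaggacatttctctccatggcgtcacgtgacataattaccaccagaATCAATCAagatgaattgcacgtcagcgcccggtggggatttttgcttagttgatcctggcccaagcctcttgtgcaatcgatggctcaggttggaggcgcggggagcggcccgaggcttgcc
Hoxd10, chr2:74691641-74691940, plus strand: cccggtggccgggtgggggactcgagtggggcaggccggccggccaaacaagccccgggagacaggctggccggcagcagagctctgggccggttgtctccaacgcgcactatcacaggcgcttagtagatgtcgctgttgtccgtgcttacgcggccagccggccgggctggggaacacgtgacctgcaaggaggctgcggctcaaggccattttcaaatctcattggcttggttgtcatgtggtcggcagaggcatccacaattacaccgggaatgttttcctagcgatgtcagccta
Hoxd9, chr2:74697513-74697812, plus strand: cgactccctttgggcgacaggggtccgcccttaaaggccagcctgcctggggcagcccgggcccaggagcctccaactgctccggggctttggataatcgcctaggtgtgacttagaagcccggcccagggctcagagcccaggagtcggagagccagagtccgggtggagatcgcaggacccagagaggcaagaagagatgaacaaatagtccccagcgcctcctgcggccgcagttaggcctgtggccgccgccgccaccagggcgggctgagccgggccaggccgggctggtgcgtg

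Hoxd9 and Hoxd10 held neither motif in this window, the upstream start of Hoxd11 held 1 TTTATG and its downstream start 1 TGATNNAT. Counting both strands, TTTATG occurred in 11.9% of all 32851 promoter windows and TGATNNAT in 8.85%. Of the 10 windows of the 9 HoxD genes, 3 held TTTATG (in Hoxd3, Hoxd4 and Hoxd11), 1 held TGATNNAT and 6 held neither, and no match of one overlapped a match of the other. The windows of Hoxd9, Hoxd10 and the downstream start of Hoxd11 were rich in G and C, at 68.3%, 62.7% and 62.0%, against a median of 52.7% over all windows, and held 20, 22 and 25 CpG dinucleotides, against a median of 7. The upstream start of Hoxd11 had 45.7% G and C and 4 CpG. Which start is used in these samples cannot be read from the single probe set of Hoxd11.

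Hoxd13, at the posterior end of the cluster and known for its part in digits and the genital tubercle, had a site difference of the same sign, of 1.29-fold at P5 and 1.33-fold at P1. It was -0.19, -0.34 and 0.00 in P5 Tail, against 0.29, 0.21 and 0.06 in P5 Back, and -0.46, -0.23 and -0.24 in P1 Tail, against 0.19, 0.11 and 0.02 in P1 Back. The groups did not overlap at either age, but P5 Tail 4 and P5 Back 3 lay close together. The difference was -0.36 ± 0.12 at P5 (adjusted p = 0.0879) and -0.42 ± 0.12 at P1 (adjusted p = 0.0744). Each of its 2 probe sets gave a negative value at both ages, between -0.52 and -0.31. Averaged over both ages, a comparison added after seeing the data, Hoxd13 was lower in tail, at -0.39 ± 0.082 (SE, adjusted p = 0.0105). In that comparison 4 of 8 members passed as lower, against 3.12% of all genes, and 0 as higher, against 4.27%, or 7.39% in either direction. The value was -0.30 without P5 Tail 2 and P5 Tail 3, a fit in which P5 Tail is 1 array. It was -0.42 without the arrays high in cartilage genes, a fit in which P1 Back is 1 array. The call was lost in both.

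Hoxd12, between Hoxd11 and Hoxd13 in the cluster and likewise a gene of the distal limb, stayed between -0.25 and 0.21 on all 12 arrays. It was -0.22, -0.25 and 0.21 in P5 Tail, against 0.04, 0.10 and -0.03 in P5 Back, and the groups overlapped at both ages. The site difference was -0.12 at P5 (95% interval -0.41 to 0.16) and -0.17 at P1 (95% interval -0.46 to 0.11). With array weights the difference at P1 was -0.28 and passed (adjusted p = 0.0404), as did 3650 of 18193 genes, against 722 without weights. When each array was left out in turn the value at P5 lay between -0.27 and -0.04. The intervals do not reach the differences of Hoxd10 or Hoxd11. Since levels were removed from the values, a gene that is close to background in all samples cannot be told from one that is expressed equally in all.

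Hoxd8, on the other side of Hoxd9, was -0.03, -0.31 and -0.15 in P5 Tail, against 0.14, 0.00 and 0.04 in P5 Back. In P1 Tail it was 0.22, -0.23 and 0.10 and in P1 Back -0.27, -0.04 and 0.01. The difference had opposite signs at the 2 ages, -0.22 ± 0.13 at P5 (adjusted p = 0.382) and 0.13 ± 0.13 at P1 (adjusted p = 0.729), and neither passed. Its 2 probe sets disagreed in sign at P1, at -0.07 and 0.33.

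Hoxd3 and Hoxd1 lie toward the anterior end, where Hox genes pattern the neck and hindbrain, and Hoxd1 is also known from developing pain-sensing neurons of the mouse. Hoxd3 was -0.22, -0.20 and 0.56 in P5 Tail, against 0.12, -0.93 and -0.67 in P5 Back, with a difference of 0.54 ± 0.26 (adjusted p = 0.27), which lay between 0.28 and 0.85 when each array was left out in turn. At P1 its difference was 0.16 ± 0.26 (adjusted p = 0.838), and tail and back arrays overlapped at both ages. Hoxd1 was 1.60, 0.53 and 0.15 in P1 Tail, against -0.53, -0.30 and 0.10 in P1 Back, so that P1 Tail 4 stood well above the next array. That difference was 1.01 ± 0.30 (adjusted p = 0.101), and when each of the 12 arrays was left out in turn it lay between 0.58 and 1.31. In the older mice Hoxd1 was -0.10, -0.31 and 0.15 in P5 Tail, against -0.15, -0.47 and 0.12 in P5 Back, a difference of 0.08 (95% interval -0.57 to 0.74).

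**Figure D2:**
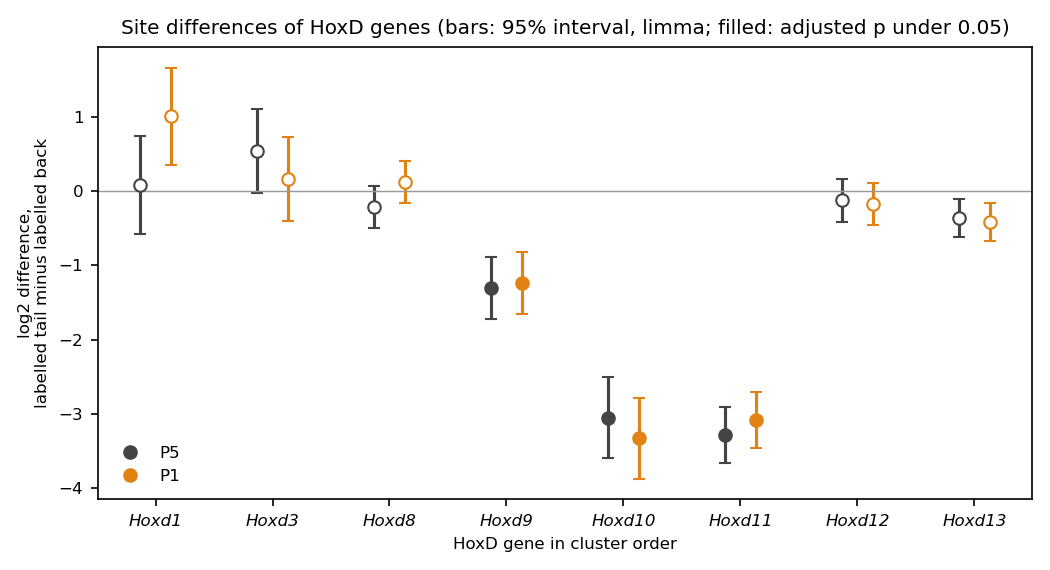
Difference between arrays labelled tail and arrays labelled back (log2, vertical axis) for each measured HoxD gene in cluster order (horizontal axis), at P5 and at P1, with 95% intervals from limma and filled points for an adjusted p under 0.05. Hoxd9, Hoxd10 and Hoxd11 are filled at both ages and lie between -3.32 and -1.24, and the intervals of Hoxd3, Hoxd8 and Hoxd12 include 0 at both ages.

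Counted without a model, 5 of 8 members had all tail arrays below all back arrays at P5 (Hoxd8, Hoxd9, Hoxd10, Hoxd11 and Hoxd13), against 9.58% of all genes, and 0 had them above, against 11%. At P1 there were 4 below (Hoxd9, Hoxd10, Hoxd11 and Hoxd13), against 17.6% of all genes, and 1 above (Hoxd1), against 12.6%. The median difference over the 8 members was -0.29 at P5 and -0.30 at P1, while that of all genes was -0.02 at P5 and -0.04 at P1.

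No HoxD gene passed between the ages. By limma, 0 of 8 members passed between P5 Back and P1 Back, where 4.25% of all genes did, and 0 of 8 between P5 Tail and P1 Tail, where 5.3% did. For 8 genes a count of 0 is near those shares. At an unadjusted p under 0.05, 1 member was counted in each. By the methods' t-test 0 passed after adjustment in either, where 10 of all genes did in back and 0 in tail. In back this was Hoxd11, at 0.43 ± 0.17 (adjusted p = 0.272). It was the 1 member of 8 whose arrays at P5 all lay above those at P1, which held for 14.4% of all genes. In tail it was Hoxd1, at -0.85 ± 0.30 (adjusted p = 0.135), the 1 member of 8 whose arrays of P5 Tail all lay below those of P1 Tail, which held for 8.34% of all genes. For Hoxd10 the age difference was 0.10 in back (95% interval -0.44 to 0.65) and 0.37 in tail (95% interval -0.17 to 0.92).

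Whether the site difference itself changed with age was tested as the interaction of site and age. None of the 8 members passed, where 2.87% of all genes did, and 0 had an unadjusted p under 0.05. For 8 genes a count of 0 is near that share. The change in the site difference, P5 minus P1, was 0.27 for Hoxd10 (95% interval -0.50 to 1.04), -0.19 for Hoxd11 (95% interval -0.73 to 0.34) and -0.07 for Hoxd9 (95% interval -0.66 to 0.53). For Hoxd1 it was -0.92 (95% interval -1.85 to 0.00, adjusted p = 0.351). In the order of group means, P5 Back was above P1 Back, then P5 Tail and P1 Tail, for Hoxd9, Hoxd10, Hoxd11 and Hoxd13, and neighbouring groups of the same site overlapped in each case except for Hoxd11 in back.

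The order along the chromosome was compared with the reference annotation, in which the cluster runs from Hoxd13 to Hoxd1. Of the 8 protein-coding genes on each side of the cluster, 14 of 16 were measured, and 0 of 14 passed by limma between sites, against 6.91% of all genes at P5 and 3.97% at P1. For 14 genes a count of 0 is near those shares. At an unadjusted p under 0.05 there was 1 at P5 and 2 at P1. By the methods' t-test 0 passed, where 24 of all genes did at P5 and 6 at P1. Evx2, a homeobox gene next to Hoxd13, differed by 0.15 at P5 (adjusted p = 0.668) and by 0.08 at P1 (adjusted p = 0.87). Mtx2, a gene of the mitochondrial outer membrane next to Hoxd1, differed by 0.03 at P5 (adjusted p = 0.907) and by 0.20 at P1 (adjusted p = 0.334). Over the 14 neighbours the site difference ranged between -0.54 and 0.39 at P5 and between -0.39 and 0.32 at P1. The genes that passed were 3 adjacent members in the posterior part of the cluster.

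**Figure D3:**
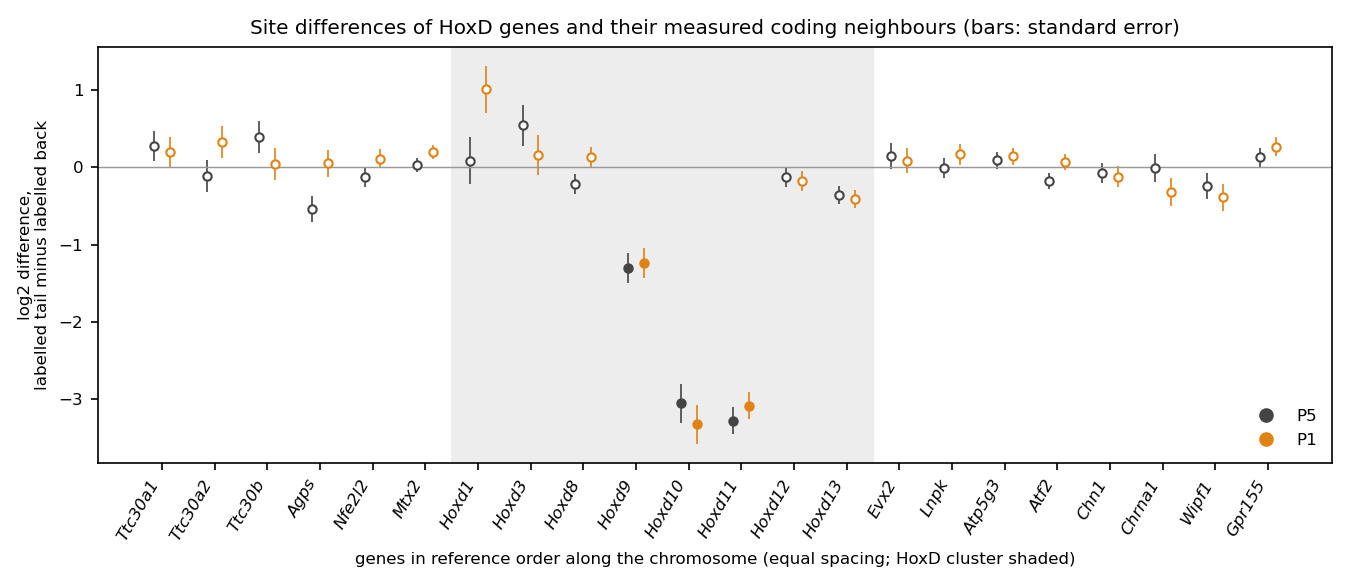
Difference between arrays labelled tail and arrays labelled back (log2, vertical axis) for the HoxD genes (shaded) and their 14 measured protein-coding neighbours, evenly spaced in their order on the chromosome (horizontal axis), at P5 and at P1, with standard errors. Filled points mark an adjusted p under 0.05, which Hoxd9, Hoxd10 and Hoxd11 alone reached, while the neighbours stayed between -0.54 and 0.39.

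Paralogues, the genes that share a number across the 4 clusters, were set beside each member. Hoxa11, the paralogue of Hoxd11 in the HoxA cluster, was lower in tail, at -2.52 at P5 (adjusted p = 3.05e-06) and -2.95 at P1 (adjusted p = 5.02e-07). Hoxa10 was lower as well, at -1.52 at P5 (adjusted p = 1.86e-05) and -1.51 at P1 (adjusted p = 1.67e-05). Hoxc10 had -0.32 at P5 (adjusted p = 0.311) and was lower at P1, at -0.77 (adjusted p = 0.0184). Hoxa10, Hoxa11 and Hoxd10 thus shared the sign of the difference, with values between -3.32 and -1.51.

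In paralogue group 9, Hoxa9 was lower in tail at both ages, at -1.09 at P5 and -1.30 at P1, and so was Hoxb9, at -0.79 at P5 and -1.04 at P1. Hoxc9 had -0.07 at P5 and -0.11 at P1 and did not pass. In group 13, Hoxa13 was lower at -1.19 at P5 and -1.36 at P1, and Hoxb13 at -1.85 at P5 and -2.04 at P1, all past the test, whereas Hoxd13 passed at neither age. Hoxc13, which acts in hair and nail formation, was lower at P5, at -0.62 (adjusted p = 0.0301), and had -0.31 at P1 (adjusted p = 0.392). In group 8, Hoxc8, a gene of the thoracic trunk, was higher in tail by 2.93 at P5 and 2.78 at P1 (adjusted p = 2.83e-07 and 5.02e-07), with no overlap between sites, while Hoxd8 passed at neither age.

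**Figure D4:**
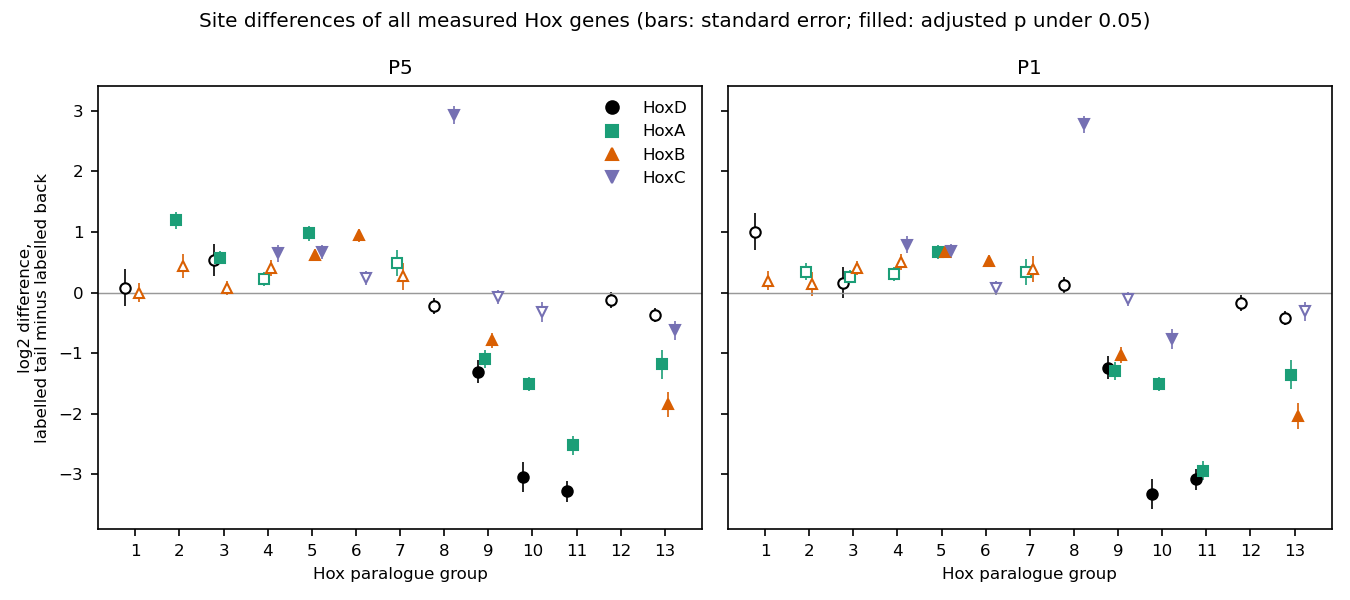
Difference between arrays labelled tail and arrays labelled back (log2, vertical axis) for every measured Hox gene by paralogue group (horizontal axis), at P5 and at P1, with standard errors, symbols for the 4 clusters and filled points for an adjusted p under 0.05. From group 9 upward all filled points lie below 0, from -3.32 to -0.62, and up to group 8 all filled points lie above 0, with Hoxc8 highest at 2.93 at P5.

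Over whole clusters, 4 of 9 measured HoxA genes were lower and 3 higher in tail at P5, and 4 lower and 1 higher at P1. HoxB had 2 lower and 2 higher of 9 at both ages, and HoxC had 1 lower and 3 higher of 7 at both ages. In HoxD the counts were 3 lower and 0 higher of 8 at both ages. Over all genes 2.61% were lower and 4.3% higher at P5, and 1.91% lower and 2.06% higher at P1. For 8 genes a count of 0 higher is near those shares. Of the groups up to 8, only Hoxd1, Hoxd3 and Hoxd8 were measured in HoxD. The higher genes of the other clusters were of groups 2 to 8, such as Hoxa5, higher by 0.98 at P5 and 0.67 at P1, and Hoxb6, higher by 0.95 at P5 and 0.52 at P1. The difference in counts between clusters was not tested.

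The 3 genes outside HoxD whose values were nearest to each called member over the 12 arrays were then listed, by the root mean square difference of centred log2 values. For Hoxd9 they were Hoxa9 at 0.27, Hoxb9 at 0.28 and Galnt13, a glycosyltransferase gene, at 0.28. For Hoxd11 they were Hoxa11 at 0.60, Fmod, which encodes the small proteoglycan fibromodulin, at 0.71 and Foxd1, a forkhead factor, at 0.72. For Hoxd10 they were Hoxa11 at 0.62, Foxd1 at 0.69 and Fmod at 0.78. Fmod, which is also a gene of the tendon list used below, was lower in tail, at -2.50 at P5 and -2.85 at P1. Foxd1 was lower as well, at -1.76 at P5 and -2.44 at P1. Both genes were chosen for values near those of Hoxd10 and Hoxd11 on the same arrays. Their lower values in tail follow from that choice and are not a separate result. The measure describes these 12 arrays, in which groups and tissue composition are shared by all genes.

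Partners and regulators of Hox genes were examined as lists. Of the Hox cofactors, homeodomain proteins that bind DNA beside Hox proteins, 8 of 9 were measured. Pbx3 was higher in tail at P5 by 0.77 (adjusted p = 0.0197), and Pknox2 was lower in tail at P1, at -0.73 (adjusted p = 0.00532). No other cofactor passed between sites at either age. Meis1, a cofactor that marks proximal limb, had 0.32 at P5 (adjusted p = 0.201) and 0.51 at P1 (adjusted p = 0.054). For the mean of both ages 2 of 8 cofactors passed, against 7.39% of all genes. Meis1 was higher in tail there, by 0.41 (limma adjusted p = 0.0166), and Pknox2 lower, at -0.49 (adjusted p = 0.0048). The median difference of the cofactors was 0.14 at P5 and -0.04 at P1.

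Polycomb and trithorax genes, whose products keep Hox clusters silent or active, gave 0 calls among 34 of 35 measured, in both site comparisons, both age comparisons and the interaction, where between 2.87% and 6.91% of all genes passed. For the mean of both ages 1 of 34 passed, against 7.39% of all genes, namely the trithorax gene Kmt2b, higher in tail by 0.35 (adjusted p = 0.0276). At an unadjusted p under 0.05 there were 5 at P5 and 3 at P1 between sites. The methods' t-test called 0 after adjustment, where it called 24 of all genes at P5 and 6 at P1. Their median site difference was -0.02 at both ages. Genes that regulate Hox genes along the axis, such as caudal-type factors and retinoid receptors, numbered 12. By limma 0 of them passed between sites, against 6.91% of all genes at P5 and 3.97% at P1. For 12 genes a count of 0 is near those shares. At an unadjusted p under 0.05 there were 3 at P5 and 2 at P1, and the methods' t-test, which called few genes of any kind, called 0. For the mean of both ages 1 of 12 passed, Cyp26a1, which encodes an enzyme that breaks down retinoic acid and was lower in tail, at -0.54 (adjusted p = 0.0266). Rarg, a retinoic acid receptor, was higher in P5 Tail than in P1 Tail by 0.76 (adjusted p = 0.0277).

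Genes that work with HoxD in the limb numbered 14, all measured. Tbx4, the T-box factor of the hindlimb, was lower in tail, at -1.22 at P5 (adjusted p = 0.000258) and -0.94 at P1 (adjusted p = 0.00216). Tbx5, its counterpart in the forelimb, had -0.09 at P5 and -0.10 at P1, and Pitx1, which acts upstream of Tbx4 in the hindlimb, had -0.21 at P5 and -0.06 at P1, and neither gene passed. At P5, Grem1, a secreted antagonist of BMP signals, was higher in tail by 1.76 (adjusted p = 3.71e-05), the ligand gene Shh was higher by 0.53 (adjusted p = 0.0277) and Gli3, a transcription factor of that pathway, was lower, at -0.40 (adjusted p = 0.016). At P1 Grem1 had -0.60 (adjusted p = 0.0613), Shh 0.27 (adjusted p = 0.382) and Gli3 -0.19 (adjusted p = 0.362).

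Cartilage and tendon genes were higher on several of the arrays labelled back. Of 10 cartilage genes 0 were lower and 1 higher in tail at P5, and 4 lower and 0 higher at P1, and of 6 tendon genes 3 were lower at P5 and 2 at P1, with 0 higher. The mean of 10 cartilage genes lay between -0.38 and 0.03 in P5 Tail, -0.04 and 0.93 in P5 Back, -0.26 and -0.21 in P1 Tail and 0.06 and 2.29 in P1 Back. The mean of 6 tendon genes lay between -0.69 and -0.15 in P5 Tail, 0.28 and 1.36 in P5 Back, -0.50 and -0.49 in P1 Tail and 0.12 and 1.94 in P1 Back. Within P1 Back, the array with the lowest cartilage mean, replicate 5 at 0.06, had Hoxd10 at 1.505 and Hoxd11 at 1.33, and replicates 1 and 6, with cartilage means of 2.29 and 1.94, had Hoxd10 at 1.19 and 1.44 and Hoxd11 at 1.18 and 1.46. The tendon mean of replicate 5 was 0.12, above that of every tail array. The part of cartilage and tendon genes in the HoxD values was not tested.

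Without P1 Back 1, P1 Back 6 and P5 Back 3, the arrays high in cartilage genes, Hoxd11 differed by -3.40 at P5 (adjusted p = 5.63e-05) and by -3.10 at P1 (adjusted p = 0.000894), and Hoxd10 by -3.12 at P5 (adjusted p = 0.0014) and by -3.45 at P1 (adjusted p = 0.00539). Hoxd9 was still lower at P5, at -1.30 (adjusted p = 0.019), while at P1 its difference of -1.36 no longer passed (adjusted p = 0.103). In that fit P1 Back is 1 array, which is assumed to vary like the other groups. Without P5 Tail 2 and P5 Tail 3, the site difference at P5 was -3.62 for Hoxd11, -3.28 for Hoxd10 and -1.27 for Hoxd9. In that fit P5 Tail is 1 array, so it has no spread of its own.

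The keratinocyte mean lay between -0.10 and 0.14 in P5 Tail and between -0.80 and -0.26 in P5 Back, but between -1.29 and 0.10 in P1 Tail and between 0.85 and 1.12 in P1 Back. Of 9 keratinocyte genes 4 were higher and 1 lower in tail at P5, and 0 higher and 2 lower at P1, and their part in the HoxD values was not tested. Of 5 melanocyte genes 0 passed at P5 and 5 were higher in tail at P1. Endothelial, macrophage, bone, Schwann cell and skeletal muscle lists had at most 1 gene past the test at either age. Of all genes 6.91% passed at P5 and 3.97% at P1. The skeletal muscle mean lay between -0.81 and -0.27 in P5 Tail, -1.81 and 1.21 in P5 Back, 0.49 and 1.89 in P1 Tail and -1.93 and 0.93 in P1 Back. With so wide a spread in back, its count of 0 does not show that muscle content was alike. The part of all these cell types in the HoxD values was not tested. The mean of 8 fibroblast genes lay between -0.05 and 0.10 in P5 Tail, -0.21 and -0.10 in P5 Back, -0.05 and 0.20 in P1 Tail and -0.16 and 0.08 in P1 Back. Of the 8, 3 were higher and 1 lower in tail at P5 and 2 higher at P1, such as Dpt, which encodes the matrix protein dermatopontin, higher by 0.69 at P5 and 0.99 at P1, and the collagen gene Col1a2, lower at P5 at -0.46. Whether fibroblast genes are present at a high level, as the dermis label implies, cannot be read from centred values.

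**Figure D5:**
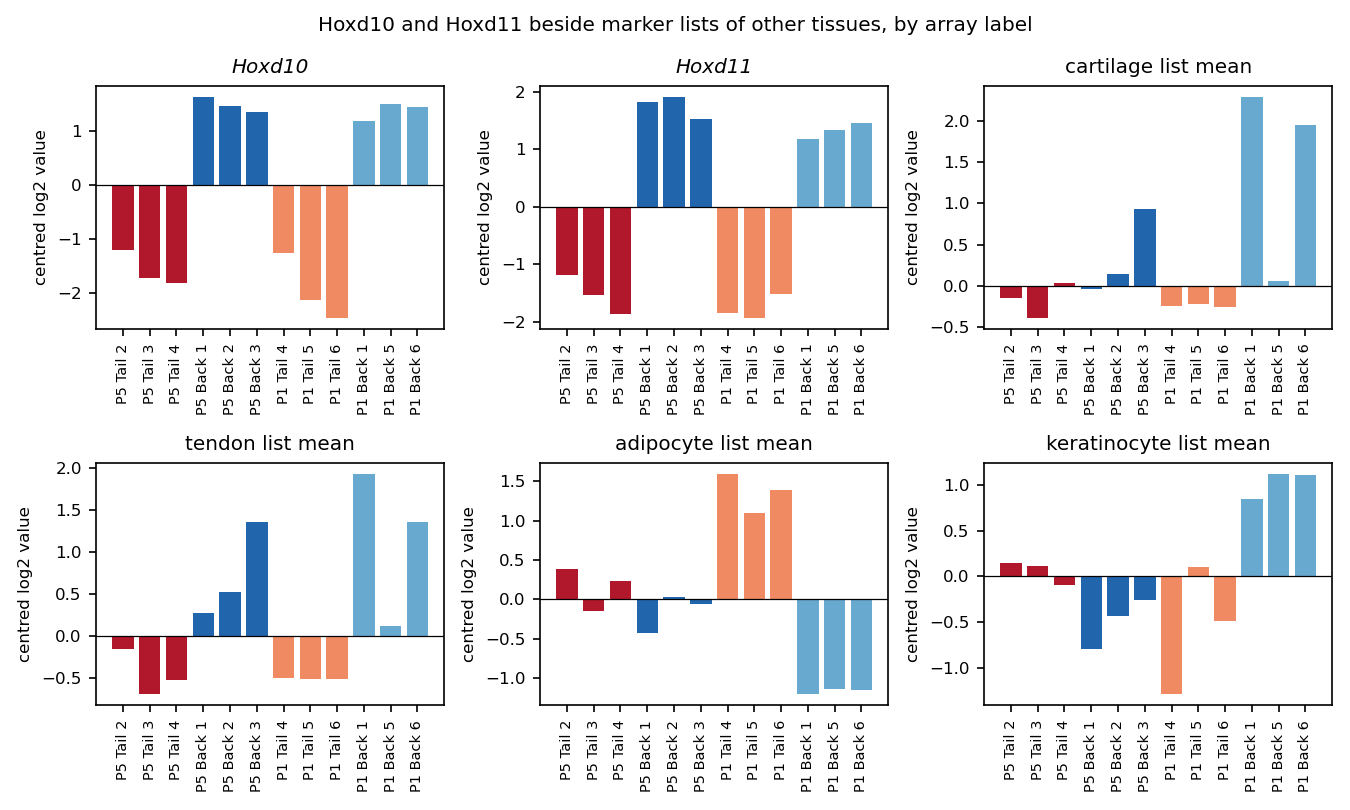
Centred log2 values (vertical axes) of Hoxd10, Hoxd11 and the means of the cartilage, tendon, adipocyte and keratinocyte lists on each of the 12 arrays (horizontal axes), with 1 bar for each array and colours for the 4 groups. Hoxd10 and Hoxd11 are at or above 1.18 on all back arrays. On P5 Back 1 and P1 Back 5 the cartilage mean is -0.04 and 0.06. The tendon mean there is 0.28 and 0.12, above that of every tail array.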

How the data were processed

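Dermis of P5 and P1 mice was measured on 12 arrays, 3 in each of 4 groups taken from the sample titles. RMA in GeneSpring was the authors' normalisation, and the deposited values are log2 expression values, centred on each probe set's median over the 12 arrays (largest remaining median 5e-07). No source used here states the log base beside the values, and RMA works in log2. Centring removed levels, so the methods' filter on weak genes could not be applied, and leaving out the 20% of probe sets with the smallest variance was tried in its place.

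The table holds 45101 probe sets, of which 64 are controls and were left out. The platform annotation gave a single symbol to 34945 probe sets, several symbols to 932 and no symbol here to 9160, and 34741 of the single-symbol ones were found in RefSeq by gene identifier. Their values were averaged by gene, which gave 18193 genes. A linear model with the 4 groups was fitted to all 12 arrays in limma 3.58.1 under R 4.3.3 (lmFit, then eBayes), with Benjamini-Hochberg adjustment over all genes, and the procedure was tested on simulated data. Precision is limited by the 3 arrays per group. The limma p-values set each difference against the spread between arrays within the 4 groups together, which eBayes draws towards that of all genes.

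Every HoxD gene is named, with the paralogues of groups 8 to 13, the 16 neighbouring protein-coding genes where measured, up to 4 called genes of each list and the 3 genes nearest to each called member. Hoxa5, Hoxb6, Meis1, Tbx5 and Pitx1 were named after their values were seen. The members and the lists were chosen with earlier results of these data known. The mean of both ages and the fit without P5 Tail 2 and P5 Tail 3 were added after seeing the data. The unpaired t-test that the study names in general was run on the same values and is called the methods' t-test. The other alternatives were a block for the replicate number, centring of each array, weights for arrays, a trended robust variance, fits to the compared arrays alone, each array left out, other choices of probe sets and leaving out arrays high in cartilage genes.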

Additional observations from a re-analysis of the deposited data

Results flagged for a closer look

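Among the Hox genes and the lists of Hox partners, regulators and limb genes, the difference between sites changed with age in 2 genes, neither of them a HoxD gene, by the test of that change. They were 1 of 9 measured HoxA genes and 1 of 14 limb genes, where 2.87% of all genes passed that test in either direction. Grem1 had an interaction of 2.36 ± 0.23 (SE, limma adjusted p = 0.000471), with 1.69 ± 0.29 in P5 Tail, -0.07 ± 0.06 in P5 Back, -0.52 ± 0.29 in P1 Tail and 0.07 ± 0.10 in P1 Back (SD, n = 3 each). Hoxa2 had an interaction of 0.85 ± 0.20 (adjusted p = 0.0353), with 0.77 ± 0.05 in P5 Tail, -0.42 ± 0.10 in P5 Back, 0.28 ± 0.32 in P1 Tail and -0.06 ± 0.07 in P1 Back. Among the marker lists, 6 of 8 adipocyte genes and 2 of 5 melanocyte genes passed that test as lower and 5 of 9 keratinocyte genes as higher, with 1 gene each of the cartilage and macrophage lists. Groups of 3 arrays were too small to test for a single array far from the others.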

How the results depend on the processing

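Of 1072 values of HoxD members under the alternatives, 1054 kept their direction or stayed uncalled, 10 lost and 8 gained a call, none reversed while called, and 40 of the uncalled changed sign. With array weights 5 members passed between sites at P1 (Hoxd12 and Hoxd13 added), where 3650 of 18193 genes did, against 722 without weights. In that setting 1 member passed between P5 Back and P1 Back (Hoxd11, adjusted p = 0.0357), where 2136 of all genes did, against 773 without weights. By the methods' t-test 0 members passed between sites at either age, where 24 of all genes did at P5 and 6 at P1. When each array was left out in turn, 0 members passed in the age comparisons and the interaction. Of all genes 379 to 1128 did between ages in back, 472 to 1685 in tail and 239 to 731 for the interaction. For the mean of both ages 4 members passed, where 982 to 2329 of all genes did. Between sites 3 to 4 members passed at P5 and at P1, where 737 to 2136 of all genes did at P5 and 385 to 1038 at P1. The added call was Hoxd13, without P5 Tail 4, at P5 (adjusted p = 0.0293) and at P1 (0.0461), and Hoxd1 at P1 without P1 Tail 6 (1.31, adjusted p = 0.0387). Hoxd13 also passed at P1 with only the arrays compared (0.0482). It passed at P1 too without P5 Tail 2 and 3, a fit in which P5 Tail is 1 array. The cause was not tested.

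Replicate numbers are shared by some groups, and 3 of 6 same-numbered pairs had a correlation of deviations over 0.1 (range -0.13 to 0.23). Some of these pairs join different ages. Tail and back of the same age gave 0.234 and 0.009 at P1 and 0.213 and -0.053 at P5. With 3 arrays per group this cannot tell whether tail and back came from the same mouse. The numbers were not taken as pairs. With the replicate block, 3 members passed between sites at both ages, where 1008 of 18193 genes did at P5 and 575 at P1. For the mean of both ages 3 members passed, where 933 of all genes did. Hoxd13 was lost there (-0.35, against -0.39 without the block, adjusted p = 0.11). In the other comparisons 0 members passed, where 689 of all genes did for the interaction. Between P5 Back and P1 Back, 285 of all genes passed with the block and 773 without it. Between P5 Tail and P1 Tail, 377 passed with the block and 964 without it.

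Counts over all genes were less stable. They were 1257 between sites at P5 (24 by the methods' t-test to 2136 without P5 Tail 4), 722 at P1 (6 by the methods' t-test to 3650 with array weights, 85 without the arrays high in cartilage genes), 773 between P5 Back and P1 Back (10 to 2136), 964 between P5 Tail and P1 Tail (0 by the methods' t-test to 1685), 522 for the interaction (44 to 767) and 1344 for the mean of both ages (392 to 2329). Signal over background cannot be given for centred values.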
